A study of Bos taurus with 12 samples.

Results

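Serum amyloids, pentraxins and other acute phase proteins are plasma proteins that the liver secretes in amounts that change with injury, infection or inflammation. These genes, 10 in all, were chosen by name: the serum amyloids SAA3 and SAA4, the pentraxins APCS, CRP and PTX3, the positive acute phase proteins HP, LBP and ORM1, and the inter-alpha-trypsin inhibitor heavy chains ITIH3 and ITIH4. All 10 were found by symbol, with 1 transcript each, among 26773 transcripts on the array, of which 18457 carried exactly 1 gene symbol (18010 different symbols).

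The transcripts were measured in liver biopsies of 12 early lactating Holstein cows, with 1 Affymetrix Bovine Gene 1.0 ST array per cow. The GSGME group (n = 6) received grape seed and grape marc meal extract, which contains plant polyphenols, at 1% of ration dry matter, and the control group (n = 6) received wheat bran at 1% instead. Feeding began 3 weeks before the expected calving and ended at week 9 postpartum, and livers were sampled at day 7 ± 2 postpartum (week 1), so all cows of both groups were recently calved and in lactation. Each group held multiparous cows and a primiparous one, individual ages were not used, and livers of animals outside the calving period were not analysed here.

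The acute phase response is switched on in hepatocytes mainly by interleukin 6, interleukin 1 and tumour necrosis factor, which act through STAT3, C/EBP and NF-kappaB transcription factors. Positive acute phase genes rise under these signals and negative ones, such as albumin, fall. In cattle, haptoglobin and serum amyloid A are the most responsive plasma proteins and serve as markers of inflammation around calving, whereas C-reactive protein, the classical human marker, responds little. Serum amyloid P component, the product of APCS, is an acute phase protein in mice but not in humans.

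Hepatocyte genes were bright in all biopsies: the mean log2 signal over 10 hepatocyte markers ranged from 12.27 to 12.46 in the GSGME group and from 12.24 to 12.33 in the control group. The log2 medians of the 12 arrays lay between 6.02 and 6.17, and any pair of arrays correlated at 0.968 to 0.990 over all transcripts, with no pair identical. Differences are given as the GSGME mean minus the control mean of log2 signals, with a negative fold standing for the negative reciprocal of a ratio below 1. A transcript was called by the study's own criterion, a fold beyond 1.3 in either direction at an unadjusted p below 0.05, here with the moderated test of limma. By this criterion 1.20% of all transcripts were called higher and 0.624% lower, and after Benjamini-Hochberg adjustment over all transcripts the count was 0 (0%), although 1567 transcripts had an unadjusted p below 0.05 in limma and 1530 had one by the methods' t-test. All calls below therefore rest on unadjusted p-values.

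Among the 10 genes, APCS was called higher and SAA4 lower in the GSGME group, and the other 8 were not called. The methods' t-test called the same 2 genes, against 0.844% of all transcripts called higher and 0.407% called lower by that test. SAA3, APCS, ORM1 and ITIH3 had a higher mean in the GSGME group and the other 6 a lower one, and the median of the 10 differences was -0.13, beside -0.015 over all transcripts. The ranges of the groups overlapped for each of the 10 genes, as they did for all but 0.217% of all transcripts. In whole biopsies, fewer cells of a type and less RNA per cell cannot be told apart.

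**Figure D1:**
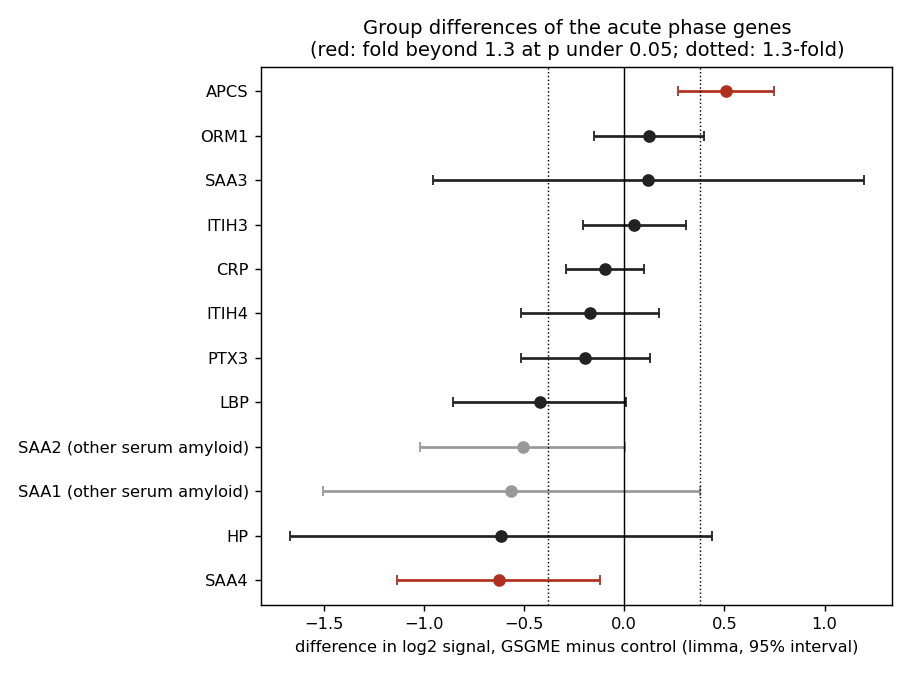
Difference in log2 signal, GSGME mean minus control mean (horizontal axis), for the 10 genes and the other serum amyloids SAA1 and SAA2, with 95% confidence intervals of the limma fit (6 cows per group). Red marks called genes, grey SAA1 and SAA2, and dotted lines a 1.3-fold change; the intervals of APCS (0.27 to 0.75) and SAA4 (-1.13 to -0.12) lie clear of 0, and those of SAA3 and HP are the widest of the 10.

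The serum amyloid A proteins are small apolipoproteins that bind to high-density lipoprotein. SAA3, an inducible form that is made in the liver and, in cattle, also in the mammary gland, spanned a log2 signal of 8.16, 9.58 and 11.37 (lowest, median and highest) in the GSGME group. In the control group it spanned 8.94, 9.09 and 11.19. Both the highest and the lowest cow belonged to the GSGME group, the ranges overlapped almost entirely, and 3 of 6 GSGME cows lay above the control mean. The means were 9.70 ± 1.12 in the GSGME group and 9.58 ± 0.92 in the control group (SD, n = 6 each), a difference of 0.12 (SE 0.50, 95% interval -0.96 to 1.20, fold 1.09, adjusted p = 0.973 in limma). The interval included a doubling of SAA3 and came close to a halving. Over the 12 cows SAA3 covered a 9.25-fold range of signal, and its spread within groups (SD 1.02) was larger than that of 99.8% of the 13386 transcripts brighter than the median one, whose median SD was 0.198.

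SAA4, the constitutively expressed serum amyloid A of humans and mice, had log2 signals of 9.29, 9.91, 10.09, 10.47, 10.51 and 10.79 in the GSGME group. The control group had 10.42, 10.52, 10.62, 10.68, 11.24 and 11.34. The 3 lowest cows were all of the GSGME group and the 2 highest were controls, with the 7 others intermixed, and 6 of 6 GSGME cows were under the control average. The mean was 10.18 ± 0.54 in the GSGME group and 10.80 ± 0.39 in the control group (SD, n = 6 each), so that SAA4 was lower by a fold of -1.54 (log2 difference -0.63, SE 0.24). The limma p was 0.0186 and the adjusted p 0.830, and the exact permutation test over 924 assignments of the cows, two-sided, gave p = 0.0476. SAA4 remained called when any 1 cow was left out, with differences from -0.75 to -0.45, but not with limma's array weights (-0.50). The GSGME arrays had weights of 1.09 to 1.69 and the control arrays 0.43 to 1.5. Such weights follow the scatter of each array around its group mean. With 1 array per cow they cannot separate array quality from differences between cows.

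The array also held the serum amyloid genes SAA1 and SAA2, which were not among the 10. SAA1, which encodes an inducible form, had log2 signals of 6.67, 7.48 and 7.85 (lowest, median and highest) in the GSGME group and 6.53, 7.56 and 9.80 in the control group. SAA2, its close relative, had 5.83, 6.06 and 6.67 in the GSGME group and 6.03, 6.43 and 7.68 in the control group. Both had lower means in the GSGME group, SAA1 by a fold of -1.48 (log2 difference -0.56, SE 0.44, exact permutation p = 0.342) and SAA2 by -1.42 (-0.51, SE 0.24, exact permutation p = 0.0909), and neither was called. SAA2 was called lower when the test was limited to transcripts above the median one or to those with a single symbol, and without Liver_GSGME_1124, Liver_control_1041 or Liver_control_819. The high SAA1 values came from Liver_control_1031 (9.80) and Liver_control_1150 (8.77). Inducible serum amyloid A genes resemble each other closely in sequence. In the bovine gene order SAA3, SAA2, SAA4 and a mammary form, M-SAA3.2, lie in a row, with 1 gene that has no symbol of its own between SAA3 and SAA2. No transcript was named for M-SAA3.2, and the gene identifier given for SAA1 had no match in the current gene table, so which copy each probe set reads is uncertain.

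**Figure D2:**
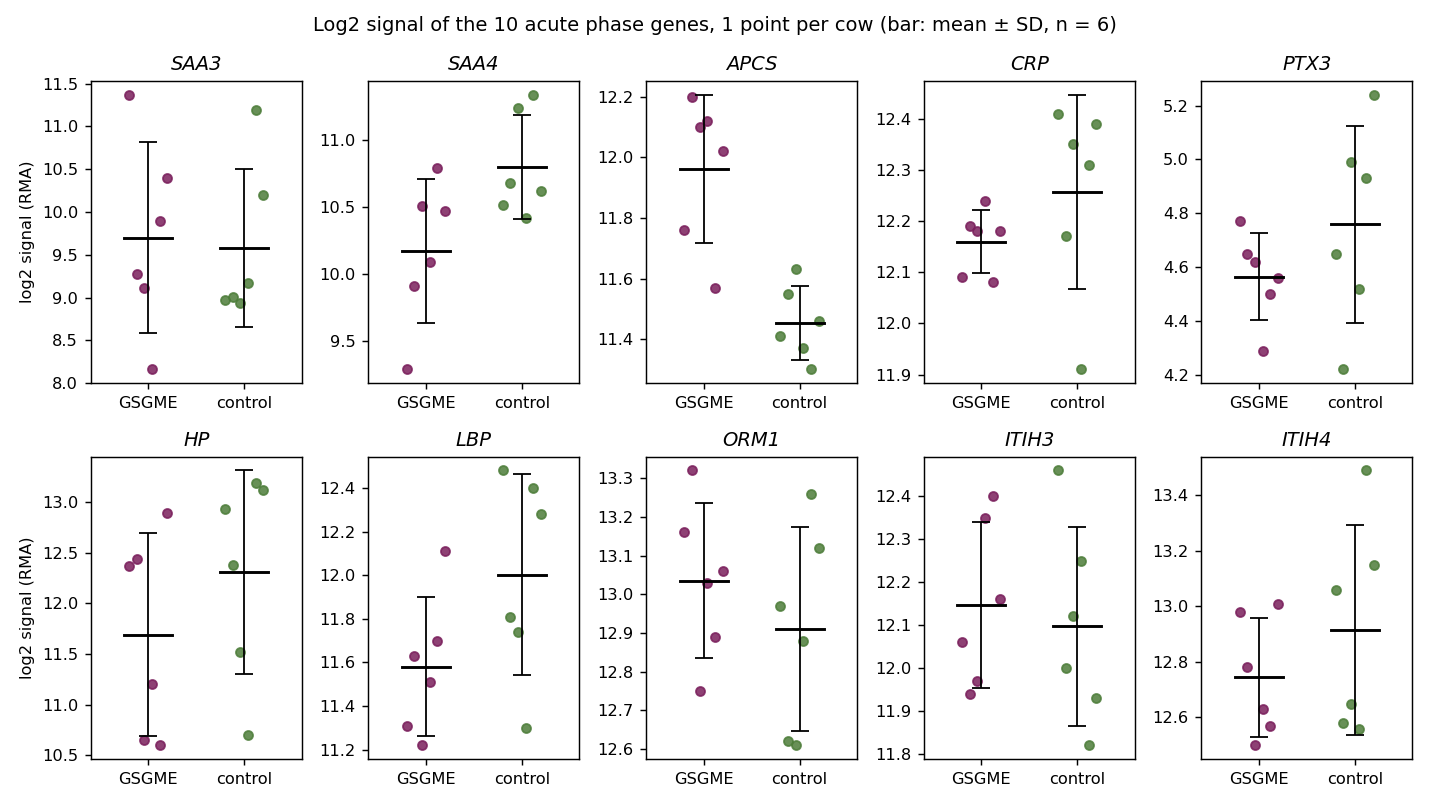
Log2 signal (vertical axis) of the 10 genes in each cow, GSGME left and control right in every panel, with points for single cows and bars for the group mean ± SD (n = 6 each). APCS lies above all controls in 5 of 6 GSGME cows, SAA4 lies below all controls in 3 of 6, and SAA3 and HP scatter widely within both groups.

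The pentraxins are ring-shaped pattern recognition proteins that bind microbial and cell debris and recruit complement. APCS, which encodes the serum amyloid P component found in all amyloid deposits, had log2 signals of 11.57, 11.76, 12.02, 12.10, 12.12 and 12.20 in the GSGME group. In the control group they were 11.30, 11.37, 11.41, 11.46, 11.55 and 11.63. Above every control cow lay 5 of 6 GSGME cows, and only Liver_GSGME_1124 (11.57) lay within the control range. The mean was 11.96 ± 0.24 in the GSGME group and 11.45 ± 0.12 in the control group (SD, n = 6 each), a difference of 0.51 (SE 0.11, 95% interval 0.27 to 0.75), which is a 1.42-fold higher signal (interval 1.21 to 1.68). The limma p was 0.000423, with an adjusted p of 0.830, and the two-sided exact permutation test gave p = 0.00433, beside a smallest possible value of 0.00216. Leaving out any 1 cow kept the call and gave differences of 0.46 to 0.59.

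CRP, the neighbouring pentraxin gene of APCS in the bovine genome, encodes C-reactive protein. Its log2 signals were 12.08, 12.18 and 12.24 (lowest, median and highest) in the GSGME group, against 11.91, 12.33 and 12.41 in the control group. All 6 GSGME values were under the control mean but inside the control range, and only Liver_control_1041 was lower than the GSGME cows. The means of 12.16 ± 0.06 in the GSGME group and 12.26 ± 0.19 in the control group (SD, n = 6 each) differed by -0.10 (SE 0.09, 95% interval -0.29 to 0.10, adjusted p = 0.871 in limma). The CRP interval held neither a 1.3-fold rise nor a 1.3-fold fall.

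PTX3, the long pentraxin, is made mainly by macrophages and endothelial cells rather than hepatocytes. Its signal was dim: only 24.1% of all transcripts had a lower mean, and the other 9 genes all lay above the median transcript (6.07). The log2 signals were 4.29, 4.59 and 4.77 (lowest, median and highest) in the GSGME group and 4.22, 4.79 and 5.24 in the control group. The difference was -0.19 (SE 0.15, 95% interval -0.52 to 0.13, adjusted p = 0.851 in limma), within the overlap of the groups.

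Haptoglobin, encoded by HP, binds free haemoglobin and is the acute phase protein most used in dairy cows. HP log2 signals were 10.60, 10.65, 11.20, 12.37, 12.44 and 12.89 in the GSGME group. In the control group they were 10.70, 11.52, 12.38, 12.93, 13.12 and 13.19. The 3 highest cows were controls and the 2 lowest were of the GSGME group, but both groups held cows near each end. The means were 11.69 ± 1.00 in the GSGME group and 12.31 ± 1.00 in the control group (SD, n = 6 each), and the difference of -0.62 (SE 0.49, 95% interval -1.67 to 0.44) corresponded to a fold of -1.53 (adjusted p = 0.857 in limma; exact permutation p = 0.288). The HP fold was close to that of SAA4, but its SE was larger (0.49 for HP and 0.24 for SAA4). HP covered a 6.02-fold range over the 12 cows, and its spread within groups was larger than that of 99.7% of the transcripts above the median one. Without Liver_control_1041, the lowest control, the difference was -0.94, and without Liver_GSGME_1124 or Liver_GSGME_1047, the lowest of their group, it was -0.40 and -0.41; HP was called in none of these fits.

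LBP encodes lipopolysaccharide-binding protein, which hands bacterial endotoxin to CD14. Its log2 signals were 11.22, 11.31, 11.51, 11.63, 11.70 and 12.11 in the GSGME group. The control group had 11.30, 11.74, 11.81, 12.28, 12.40 and 12.48. Of the GSGME cows, 5 of 6 were under the control mean and 3 control cows lay above every GSGME cow, but Liver_control_1041 was near the bottom of the GSGME range. The means of 11.58 ± 0.32 in the GSGME group and 12.00 ± 0.46 in the control group (SD, n = 6 each) differed by -0.42 (SE 0.20, 95% interval -0.85 to 0.01), a fold of -1.34. With p = 0.0552 in limma (adjusted p = 0.830) and p = 0.0974 in the exact permutation test, LBP was not called. The call changed with single cows: LBP passed without Liver_control_1041 (-0.56), Liver_control_825 (-0.47) or Liver_GSGME_1001 (-0.53), each by limma.

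ORM1 encodes alpha-1-acid glycoprotein, a carrier of drugs and small ligands in plasma. Its log2 signals were 12.75, 13.05 and 13.32 (lowest, median and highest) in the GSGME group and 12.61, 12.93 and 13.26 in the control group. The groups overlapped over nearly their whole range, with a difference of 0.13 (SE 0.13, 95% interval -0.15 to 0.40, fold 1.09, adjusted p = 0.881 in limma). The interval left room for a rise of up to 0.40 on the log2 scale but for a fall of no more than 0.15.

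Inter-alpha-trypsin inhibitor heavy chains such as ITIH3 bind hyaluronan and stabilise the extracellular matrix. ITIH4 is the member of the family known as an acute phase protein in cattle and pigs. ITIH4 had log2 signals of 12.50, 12.71 and 13.01 (lowest, median and highest) in the GSGME group and 12.56, 12.86 and 13.49 in the control group. ITIH3, its neighbour in the genome, had 11.94, 12.11 and 12.40 in the GSGME group and 11.82, 12.06 and 12.46 in the control group. Neither was called. The difference was -0.17 for ITIH4 (SE 0.16, 95% interval -0.52 to 0.18, adjusted p = 0.872 in limma) and 0.05 for ITIH3 (SE 0.12, 95% interval -0.21 to 0.31, adjusted p = 0.947 in limma), so that the ITIH3 interval excluded a 1.3-fold fall and a 1.3-fold rise alike.

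The second question was whether these genes varied together from cow to cow. For this the group means were subtracted, so that a difference between the diets could not produce a relation, and Pearson's r and Spearman's rho were computed over the 12 cows for all 45 pairs, of which 26 were positive and 19 negative. After adjustment over the 45 pairs 2 passed, and both involved ITIH4. HP and ITIH4 rose and fell together (r = 0.83, permutation p = 0.0014, adjusted p = 0.0315; rho = 0.87, permutation p = 0.00058, adjusted p = 0.0261). Within the groups r was 0.94 in the GSGME group and 0.81 in the control group, and it was 0.80 without the cows farthest from the HP median, Liver_control_1041 and Liver_GSGME_1124. ORM1 and ITIH4 were related likewise (r = 0.82, permutation p = 0.00127, adjusted p = 0.0315; rho = 0.81, permutation p = 0.00207, adjusted p = 0.0466), with r = 0.66 in the GSGME group, 0.90 in the control group and 0.73 without Liver_control_1031 and Liver_control_825.

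**Figure D3:**
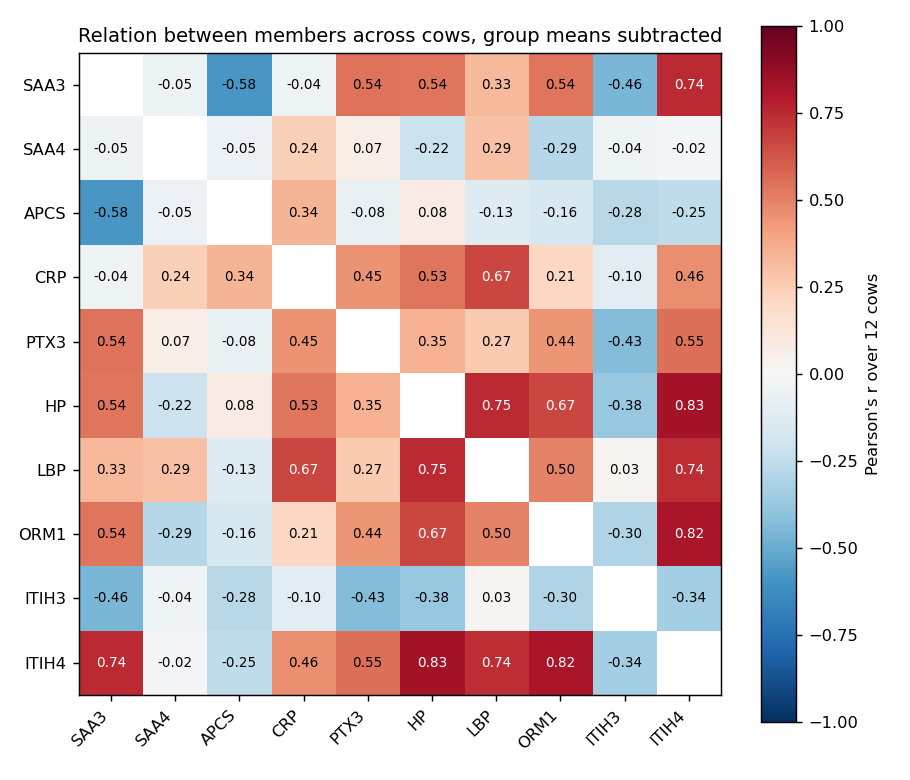
Pearson's r over 12 cows for each pair of the 10 genes, on log2 signals with the group means subtracted, in a colour scale from -1 to 1. HP, LBP, ORM1 and ITIH4 are positively related to each other, and SAA4, APCS and ITIH3 stand apart from them.

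A further 3 pairs that joined ITIH4, HP, LBP and SAA3 had an unadjusted permutation p below 0.05 and did not pass the adjustment. HP and LBP had r = 0.75, LBP and ITIH4 r = 0.74, and SAA3 and ITIH4 r = 0.74 (adjusted permutation p = 0.0569 for each). The relation of SAA3 and ITIH4 weakened to 0.54 without Liver_GSGME_821 and Liver_control_1031, which hold the highest SAA3 values, while that of HP and LBP was 0.76 without the farthest pair of cows. In all, 8 of 45 pairs had an unadjusted permutation p below 0.05. Among them were HP and ORM1 (r = 0.67, permutation p = 0.0191, adjusted p = 0.123) and CRP and LBP (r = 0.67, permutation p = 0.0131, adjusted p = 0.0983). For CRP and LBP r was 0.09 within the GSGME group, 0.84 within the control group and 0.26 without Liver_control_1041 and Liver_control_1017. Of the 2 genes called between the groups, SAA4 had r = -0.05 with SAA3 and -0.22 with HP. APCS had r = 0.08 with HP and a negative r with SAA3, which was 1 of the 8 pairs (r = -0.58, permutation p = 0.0469, adjusted p = 0.258; rho = -0.66, permutation p = 0.022, adjusted p = 0.165). Pairs that share a gene are not independent, and all pairs share the same 12 arrays.

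**Figure D4:**
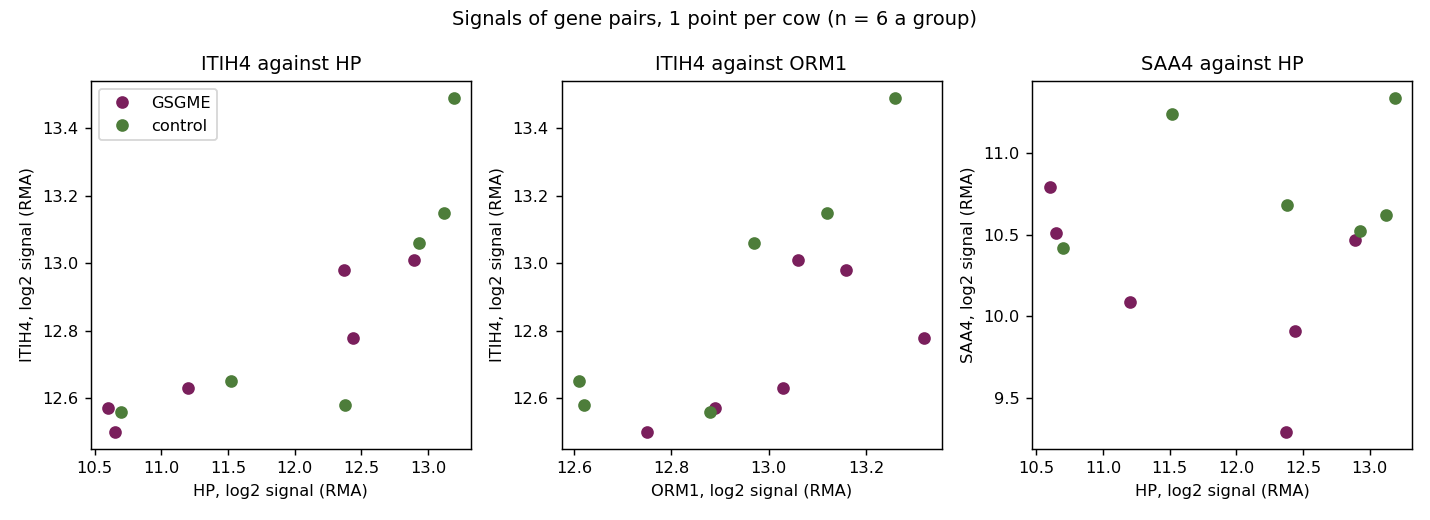
Log2 signals of ITIH4 against HP, ITIH4 against ORM1 and SAA4 against HP, with 1 point per cow, both axes in log2 units, GSGME and control cows marked by colour and the values not centred. Cows with a high HP signal also had a high ITIH4 signal in both groups (r = 0.94 within the GSGME group and 0.81 within the control group), and SAA4 shows no such order.

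Single cows stood out across several genes. The cow Liver_control_1031 was among the 3 highest of the 12 cows for each of SAA3, HP, LBP, ORM1 and ITIH4, and was the highest of all for SAA4, HP and ITIH4, yet it was the lowest for APCS and ITIH3. The cow Liver_control_1017 was the highest for CRP, LBP and ITIH3, and Liver_control_1150 was among the 3 highest for 5 of the 10 genes. At the other end, Liver_GSGME_1047 was among the 3 lowest for 4 of the 5 genes SAA3, HP, LBP, ORM1 and ITIH4, with the lowest LBP and ITIH4 signals. The cow Liver_control_1041 was among the 3 lowest for 3 of the 5. Every pair of these 5 genes had a positive r over the same cows, so the ranks of a cow in them are not independent. Liver_GSGME_821 combined the highest SAA3 signal (11.37) with the lowest SAA4 signal (9.29).

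Transcripts whose pattern over the 12 cows was most like that of SAA3, SAA4 and HP were sought among 10164 bright transcripts with a single symbol, again with group means subtracted. For SAA3 these were LOC100300478 (r = 0.94), TSPO, a cholesterol-binding protein of the outer mitochondrial membrane (0.91), GPBAR1, a bile acid receptor (0.87), CTSC, the lysosomal protease cathepsin C (0.84), and PSTPIP2 (0.82). For SAA4 they were FAM180B (0.88), PAX8 (0.86), APOB, the structural apolipoprotein of very low-density lipoprotein (0.84), SEC61A1, the channel through which secreted proteins enter the endoplasmic reticulum (0.84), and TMED2, a cargo receptor between the endoplasmic reticulum and the Golgi (0.83). For HP they were GPX3, the secreted glutathione peroxidase (0.97), RILP (0.89), PLOD3, a collagen lysyl hydroxylase (0.87), GGT1, gamma-glutamyltransferase (0.85), and BCAM (0.85). None of the 15 was called between the groups. These correlations are descriptions over 12 cows, picked as the highest of many.

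The genes around the acute phase proteins were examined as 8 lists, which held 123 different measured genes. Of the 123, 1 was called higher and 2 were called lower, beside 1.20% and 0.624% of all transcripts. The median difference over the lists was -0.01, with 55 genes higher, 67 lower and 1 equal on average in the GSGME group.

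Among the inducing cytokines, 9 were measured, 8 of them dimmer than the median transcript, and none was called. TNF, tumour necrosis factor, had a log2 mean of 6.12 in the GSGME group and 5.84 in the control group (difference 0.27, fold 1.21, unadjusted p = 0.023 in limma, adjusted p = 0.830), higher than the control mean in 6 of 6 GSGME cows but below the 1.3-fold criterion. IL11 had a difference of -0.18 and IL6, the main inducer in hepatocytes, of 0.06. IL1B, interleukin 1 beta, had a difference of 0.33 and was called higher without Liver_control_1150.

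Of 28 cytokine receptors and signal transducers, 2 were called lower and none higher, beside 0.624% and 1.20% of all transcripts. SOCS3, the feedback inhibitor that interleukin 6 induces through STAT3, had log2 signals of 6.64, 6.86 and 6.90 (lowest, median and highest) in the GSGME group and 6.56, 7.25 and 8.14 in the control group. IL1R2, the decoy receptor that captures interleukin 1 without signalling, had 5.67, 6.18 and 6.32 in the GSGME group and 5.98, 6.70 and 7.49 in the control group. For both genes 6 of 6 GSGME cows were under the control average while the ranges overlapped. SOCS3 was lower by a fold of -1.45 (exact permutation p = 0.0411, adjusted p = 0.830 in limma; not called without Liver_control_1031) and IL1R2 by -1.42 (exact permutation p = 0.0498, adjusted p = 0.830 in limma; not called by the methods' t-test, nor without Liver_GSGME_1143 or Liver_control_1017, Liver_control_1031 or Liver_control_1150). IL1R1, interleukin 1 receptor type 1, had the lowest limma p of the list (0.00966, adjusted p = 0.830) but stayed below the 1.3-fold criterion (-0.34, fold -1.27, exact permutation p = 0.0216). The dim SOCS1 also stayed below it (-0.29, fold -1.22, exact permutation p = 0.0238). For both, 6 of 6 GSGME cows were under the control mean. Leaving out each cow gave 0 to 3 genes called lower. Over the list 12 means were higher and 16 lower in the GSGME group, with a median difference of -0.03.

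The 24 transcription factors of acute phase genes held no called gene, and their median difference was -0.03. The lowest p-values belonged to BCL3, an NF-kappaB co-regulator (difference -0.36, fold -1.28, exact permutation p = 0.100; called lower, with FOXA3, without Liver_control_819), and NFKB1, the p50 subunit of NF-kappaB (0.20, exact permutation p = 0.078), which differed in opposite directions. The NFKB1 value of Liver_control_825 (6.99) was set apart from the other controls.

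Of 26 genes listed as other positive acute phase proteins, 20 had a lower and 6 a higher mean in the GSGME group (median difference -0.06). The list was not limited to secreted plasma proteins. VNN1 was the only gene called, and it was higher, beside 1.20% of all transcripts called higher. VNN1 encodes vanin 1, a pantetheinase of the hepatocyte surface that is known in mice as a target of the fatty acid receptor PPAR-alpha. It had a log2 mean of 10.19 ± 0.44 in the GSGME group and 9.47 ± 0.74 in the control group (SD, n = 6 each), a fold of 1.65 (exact permutation p = 0.0671, adjusted p = 0.830 in limma), above the control mean in 6 of 6 GSGME cows. It was not called by the methods' t-test, nor without Liver_GSGME_1047, Liver_GSGME_1124, Liver_control_1031 or Liver_control_1150. MBL2, mannose-binding lectin, had the lowest limma p of the list (0.0094, adjusted p = 0.830) and a higher mean in the GSGME group. Its difference of 0.30 (fold 1.23) stayed below the 1.3-fold criterion. Fibrinogen beta chain FGB (-0.04), ceruloplasmin CP (-0.11) and the iron hormone hepcidin, HAMP (-0.19), were among the 25 not called, as were the metallothionein MT2A, with a difference of -0.69 (fold -1.61, exact permutation p = 0.242; called lower without Liver_control_825), and S100A8, a calprotectin subunit of neutrophils and macrophages (-0.40).

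The 14 negative acute phase proteins had a median difference of 0.10, beside 0.01 over the 13386 transcripts above the median one. In the GSGME group 12 of their means were higher, 1 lower and 1 equal, and none of the 14 was called. The 10 hepatocyte markers, which share ALB, TF, TTR and APOA1 with this list, shifted in the same direction (median difference 0.08, 8 higher and 2 lower means). FETUB, fetuin B, had a difference of 0.51 (fold 1.43, exact permutation p = 0.175, higher than the control mean in 5 of 6 GSGME cows) and TF, transferrin, of 0.11 (exact permutation p = 0.076). Albumin, ALB, averaged 13.81 in the GSGME group and 13.74 in the control group, with 5 of 6 GSGME cows above every control cow. The difference was 0.07 (fold 1.05, exact permutation p = 0.00433, but unadjusted p = 0.281 and adjusted p = 0.866 in limma). RBP4, the retinol-binding protein, had a difference of equal size (0.07, fold 1.05, exact permutation p = 0.0346, but unadjusted p = 0.269 in limma). Both stayed far below the 1.3-fold criterion. FETUB was called higher without Liver_GSGME_1047 or Liver_control_1041.

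**Figure D5:**
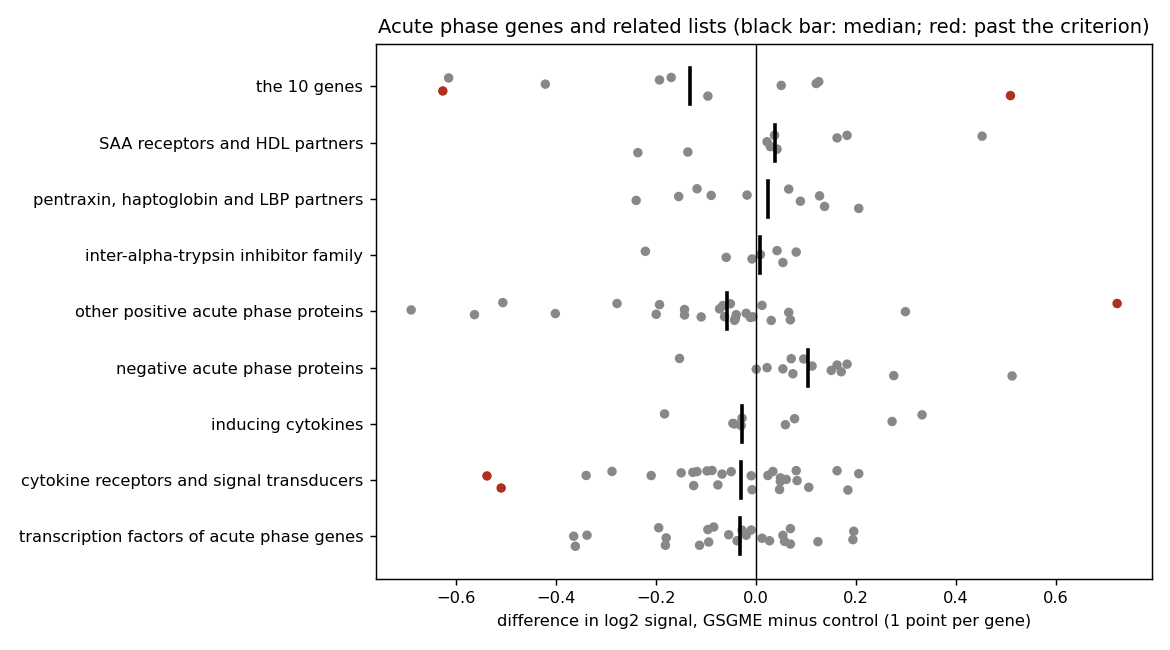
Log2 difference, GSGME mean minus control mean (horizontal axis), of the 10 genes (top row) and of each measured gene in the 8 lists, with 1 point per gene (red where called) and a black bar for the median. The medians of the 8 lists lie between -0.06 (other positive acute phase proteins) and 0.10 (negative acute phase proteins). Beside them, the median was -0.015 over all transcripts and 0.01 over those above the median one.

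The binding partners of the 10 genes were not called either. Of 9 receptors and lipoprotein partners of serum amyloid A, CD36, a scavenger receptor, had a difference of 0.45 (fold 1.37, exact permutation p = 0.126; called higher without Liver_GSGME_1047, Liver_GSGME_1124, Liver_control_1017 or Liver_control_819) and AGER, the receptor for advanced glycation end products, of -0.24, with the value of Liver_GSGME_741 (5.66) set apart from the rest of its group. Of 10 partners of pentraxins, haptoglobin and LBP, hemopexin, HPX, which clears free haem, had a difference of -0.24 (exact permutation p = 0.141), lower than the control average in 6 of 6 GSGME cows, and C1QC, a chain of the complement component that pentraxins bind, had 0.20. In the inter-alpha-trypsin inhibitor family, ITIH1 (0.05), ITIH2 (-0.01) and AMBP, the precursor of the light chain bikunin (0.01), differed by little, and the hyaluronan partners TNFAIP6 (0.08) and HAS2 (-0.22) were dim.

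Markers of other liver cell types were set beside these values. Of 10 T and NK cell markers, 2 were called higher in the GSGME group, beside 1.20% of all transcripts. CD96 averaged 5.75 in the GSGME group and 5.29 in the control group, without overlap (fold 1.37, exact permutation p = 0.00216, adjusted p = 0.830 in limma). CD3D averaged 5.82 in the GSGME group and 5.39 in the control group (fold 1.35, exact permutation p = 0.0779, adjusted p = 0.830 in limma) and was not called by the methods' t-test. The mean over this list ranged from 5.94 to 6.41 in the GSGME group and from 5.68 to 6.0 in the control group. Of the 10, 8 had a higher and 2 a lower mean in the GSGME group. Dimmer than the median transcript were 6 of the 10, CD96 and CD3D among them. JCHAIN, the joining chain of secreted antibodies, was the 1 of 4 B and plasma cell markers called. It averaged 8.21 in the GSGME group and 7.55 in the control group (exact permutation p = 0.0519, adjusted p = 0.830 in limma). MS4A1 (0.19) also had a higher mean in the GSGME group, and CD79B (-0.09) and CD79A (-0.0033) had a lower one. The mean over these markers ranged from 6.39 to 7.02 in the GSGME group and from 6.30 to 6.60 in the control group. None of the 11 Kupffer cell and macrophage markers (8.89 to 9.64 in the GSGME group and 8.77 to 9.41 in the control group) and none of the 9 neutrophil markers (5.52 to 6.10 in the GSGME group and 5.48 to 6.49 in the control group) was called. The endothelial, stellate cell, cholangiocyte and erythroid lists held no called gene. The part of these cells in the differences of APCS, SAA4 and the other acute phase genes was not tested.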

How the data were processed

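Total RNA of liver biopsies was labelled and hybridised to 1 array per cow. The authors corrected the background, normalised and summarised the probes by RMA in the Affymetrix Expression Console (version not given in the sources used here), and deposited log2 signals with 2 decimals for 26773 transcripts. RMA shares one intensity distribution between arrays, so a shift of all genes in a cow would not be seen. Genes were named from the platform's annotation, in which 688 transcripts had several symbols and 7628 none, and neighbouring genes were taken from a RefSeq gene table of assembly ARS-UCD2.0. Cow numbers in the labels served as replicate names. The cows are separate animals.

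Groups were compared with limma 3.58.1 in R 4.3.3 (lmFit and eBayes, no covariates, two-sided) over all transcripts, and p-values were adjusted by Benjamini-Hochberg. Relations used 100000 permutations (Python 3.11.15, scipy 1.17.1). The fit was tested on simulated data. The number of arrays limits the precision. The genes and lists were chosen with earlier results of these data known. Named were the 10 genes, each called gene of a list and otherwise the 2 of lowest p, and the 5 transcripts most like SAA3, SAA4 and HP. FGB, CP, HAMP, MT2A, S100A8, MBL2, ALB, RBP4, IL6, IL1B, IL1R1, SOCS1, FOXA3, ITIH1, ITIH2, AMBP, SAA1, SAA2 and the marker genes were added after their values were seen. The 21 alternatives comprised the methods' t-test, cyclic loess, array weights, a trended prior, filters on transcripts, a fold of 1.5, the exact test and leaving out each cow. Promoter motifs were not analysed here.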

Additional observations from a re-analysis of the deposited data

Results flagged for a closer look

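In 54 groups of 6 cows (27 genes), 3 had a lowest cow set apart from the other 5 by a gap, as a share of the group's range, above Dixon's 95% critical value, where chance would flag about 5% of groups. None of them concerned the 10 acute phase genes. AGER was 5.66 in Liver_GSGME_741, against 6.19 to 6.50 in the other GSGME cows (gap 0.631 of the range). IL1R2 was 5.67 in Liver_GSGME_1143, against 6.10 to 6.32 in the other GSGME cows (0.662), and this cow is among those without which IL1R2 was not called. NFKB1 was 6.99 in Liver_control_825, the array with the lowest array weight (0.43), against 7.31 to 7.49 in the other controls (0.64).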

How the results depend on the processing

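APCS was called higher under every alternative except a fold beyond 1.5, which left 0 genes called higher, and SAA4 was called lower under every alternative except array weights (-0.50, 0 genes called lower). LBP joined SAA4, giving 2 genes called lower, after cyclic loess (-0.46) and with single-symbol transcripts only (-0.42). Leaving out each cow gave 1 to 2 genes called lower, LBP differences of -0.56 to -0.33, and differences that changed sign for SAA3 (-0.21 to 0.44) and ITIH3 (-0.0053 to 0.12). Without changing sign or call, leaving out a cow also moved HP (-0.94 to -0.40), ITIH4 (-0.24 to -0.055), PTX3 (-0.30 to -0.097), CRP (-0.17 to -0.066) and ORM1 (0.065 to 0.20). The relation of HP and ITIH4 stayed between 0.80 and 0.91 and that of ORM1 and ITIH4 between 0.74 and 0.89. No paired analysis was possible because the groups share no cow number. With 6 cows per group the wide intervals of SAA3 and HP limit what could be detected, PTX3 and most cytokines were dim, and no call passed adjustment over all transcripts.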

Other observations

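The transcripts most like LBP, ITIH4 and APCS over the 12 cows, with group means subtracted, were looked up after the values were seen. The 5 most like LBP were AZGP1, zinc-alpha-2-glycoprotein (r = 0.97), the fibrinogen chain FGA (0.93), CYP11A1, the cholesterol side-chain cleavage enzyme (0.92), AMOTL2 (0.90) and the fibrinogen chain FGG (0.87). The 5 most like ITIH4 were KIF23, a kinesin of cell division (0.93), PAQR5 (0.92), the serine protease inhibitor SERPINA3-8 (0.90), BCAM (0.89) and hemopexin, HPX (0.89). The 5 most like APCS were APOA5, an apolipoprotein of triglyceride-rich lipoproteins (0.89), INHBE (0.89), LYRM4 (0.88), MRPL54 (0.87) and LMF2 (0.85). None of these 15 was called between the groups. The mannose-binding lectin MBL2, which starts the lectin pathway of complement, averaged 11.82 ± 0.14 in the GSGME group and 11.52 ± 0.18 in the control group (SD, n = 6 each), a fold of 1.23 that stayed below the criterion (exact permutation p = 0.011, adjusted p = 0.830 in limma); it was higher than the control average in 6 of 6 GSGME cows.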
